A study of Xenopus tropicalis with 3 samples.

Results

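The genes of the egg coat were followed through early epidermis development in Xenopus tropicalis. Every gene of the deposited table named zpax, zpd, or zp followed by a digit was taken, which gave 6 genes (zp2, zp3.2, zp4, zp4.2, zpax and zpd) in 7 transcript rows, of 17647 genes in 35047 rows. RNA came from animal caps, the manually dissected roof of the embryo whose labelled tissue is the future epidermis. The samples are titled by stage, of which NF10.5 falls in gastrulation, NF16 in neurulation and NF24 in the tailbud period. NF numbers the stages of the Nieuwkoop and Faber table. The titles do not say at which stage a cap was cut, or whether it was then cultured to the named stage. Below, gastrula, neurula and tailbud cap mean the cap titled with that stage. The labels name no genotype or treatment beyond the dissection, and give 3 biological replicates per stage. The table gives 1 value per transcript and stage, read here as the authors' mean of those replicates, in FPKM (fragments scaled to transcript length and to the fragments sequenced). No value therefore carries an error, the depth of the libraries is unknown, and no difference between stages, or between genes that lie next to each other in level, could be tested against the spread of replicates.

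The egg of a frog is wrapped in a fibrous envelope of glycoproteins that share the zona pellucida domain, a module through which they polymerise into filaments. The growing oocyte makes and secretes these proteins, sperm bind to the envelope at fertilization, and the embryo later hatches out of it. Transcripts that are made during oogenesis and loaded into the egg are called maternal, and many of them are cleared as the embryo's own genome takes over. In the dissected cap, fewer cells holding a transcript and less of that transcript per cell cannot be told apart. Neither can be told from a smaller share beside other RNA that rises, since FPKM is scaled to the fragments sequenced.

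All 6 genes were abundant in the gastrula cap and lower at each later stage. Their summed level was 476 FPKM at NF10.5, 141 FPKM at NF16 and 53.4 FPKM at NF24, so the neurula cap held 29.5% of the gastrula value and the tailbud cap 11.2%. As a part of all FPKM in the table they made up 0.0823%, 0.0264% and 0.0106% in the same order of stages. The median gene of the family went through 72.2, 20.4 and 7.19 FPKM, while the median of the 11771 genes with at least 1 FPKM at some stage was 13.7, 9.03 and 10.54 FPKM. All 6 members passed that filter.

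**Figure D1:**
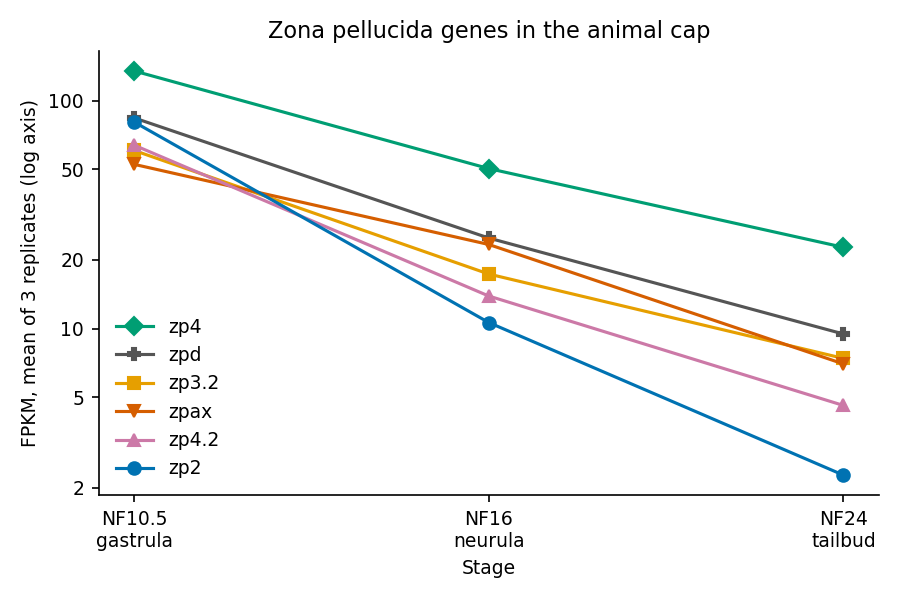
FPKM of the 6 zona pellucida genes (log axis, authors' mean of 3 replicates, no error available) at the gastrula, neurula and tailbud stages. All 6 lines descend at both steps, zp4 is highest at each stage with 22.7 FPKM left at NF24, and zp2 crosses the lines of zp4.2, zp3.2 and zpax and ends lowest, at 2.27 FPKM.

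Among the structural components, zp2 encodes the ZPA protein, the component of the envelope that binds sperm in Xenopus laevis and is cut at fertilization. It was listed at 80.6 FPKM at NF10.5, 10.6 FPKM at NF16 and 2.27 FPKM at NF24. The neurula value was 13.2% of the gastrula value and the tailbud value 2.82% of it. Its gastrula level was thus 35.5-fold its tailbud level, the largest such ratio within the family. By its place among the 11771 genes, which does not depend on how the columns are scaled, zp2 held rank 1394 in the gastrula, 5414 in the neurula and 9474 in the tailbud cap.

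The gene zpax encodes a further egg coat protein of the amphibian envelope and takes its name from ZPA. It was the least abundant of the 6 at NF10.5, at 52.5 FPKM, and was listed at 23.4 FPKM at NF16 and 6.99 FPKM at NF24. Its neurula value was 44.5% of the gastrula value, the largest share within the family, whereas its tailbud value was 29.9% of the neurula value, a smaller share than in any other member except zp2 (21.4%). Set side by side, zp2 had 1.53 times the FPKM of zpax at NF10.5, 0.454 times at NF16 and 0.325 times at NF24. These ratios are taken within a column and do not move when the whole column is multiplied by a common factor. Quantile normalization is not of that kind and can move them.

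The 2 genes named after the ZPB-type component, zp4 and zp4.2, kept different levels. For zp4, which RefSeq also lists as ZPB, the values were 135 FPKM at NF10.5, 50.3 FPKM at NF16 and 22.7 FPKM at NF24. It ranked first among the 6 genes at each stage, and at NF24 it held 16.8% of its gastrula value. For zp4.2 the values were 63.8, 13.9 and 4.60 FPKM in the order of stages, with 7.21% of the gastrula value at NF24. The FPKM of zp4.2 was 0.472 times that of zp4 at NF10.5, 0.276 times at NF16 and 0.202 times at NF24.

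The gene zp3.2 belongs to the ZP3 or ZPC type, which pairs with other zona proteins in the filaments of vertebrate egg coats. It had 60.5 FPKM at NF10.5, 17.3 FPKM at NF16 and 7.39 FPKM at NF24. The gene zpd, which encodes an egg coat component found in frogs and birds, had 84.0, 24.95 and 9.46 FPKM in the order of stages. Both stood near the middle of the family, with 12.2% (zp3.2) and 11.3% (zpd) of the gastrula value at NF24.

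The order of levels was zp4, zpd, zp2, zp4.2, zp3.2 and zpax at NF10.5, and zp4, zpd, zpax, zp3.2, zp4.2 and zp2 at NF16. At NF24 it was zp4, zpd, zp3.2, zpax, zp4.2 and zp2. The first and second places were the same at each stage, and zp2 moved from the third place to the last. The family spread out as it declined, since the highest member had 2.57 times the FPKM of the lowest at NF10.5, 4.74 times at NF16 and 9.996 times at NF24. Within the summed level, zp4 made up 28.3%, 35.8% and 42.5%, zp2 16.9%, 7.56% and 4.25%, and zpd stayed between 17.6% and 17.8%.

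**Figure D2:**
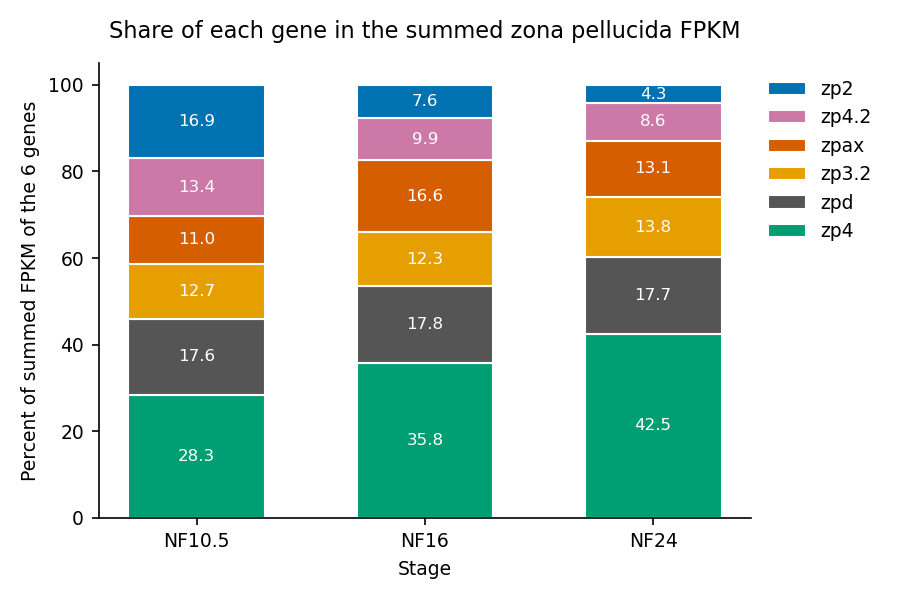
Percent of the summed FPKM of the 6 zona pellucida genes taken by each gene at NF10.5, NF16 and NF24 (stacked bars, authors' means). The zp4 segment widens to 42.5% at NF24 and the zp2 segment narrows to 4.25%, while zpd keeps a near constant share.

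Only zp4.2 was listed with more than 1 transcript. Its leading transcript, XM_002939869.4, had 61.4 FPKM at NF10.5, 13.2 FPKM at NF16 and 3.95 FPKM at NF24. The second, XM_004912252.3, had 2.38, 0.693 and 0.647 FPKM. The share of the second transcript was 3.74% in the gastrula, 4.99% in the neurula and 14.1% in the tailbud cap. That last share rests on a value below 1 FPKM, and the authors' division of reads between the overlapping transcripts cannot be checked from FPKM.

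Genes were compared between stages as log2(FPKM + 1), and a gene is called higher or lower where the difference is at least 1 in size, a 2-fold ratio after the addition of 1. This is a rule of size and not a test. Between gastrula and neurula, all 6 genes were called lower at NF16, against a background of 39.0% of all genes compared. Genes below 1 FPKM at the earlier stage cannot be called lower, here or in the comparisons below. The background is therefore not matched to the members in level. With the filter at 5 FPKM in place of 1 it was 43.6%. The differences were -2.81 for zp2, -2.12 for zp4.2, -1.74 for zp3.2, -1.71 for zpd, -1.41 for zp4 and -1.14 for zpax, with a median of -1.73 over the 6 and -0.57 over all genes. Of the 6, 0 were called higher, a call given to 20.9% of all genes. The family lay within the broad lower side of the transcriptome at this step, from place 513 (zp2) to place 4120 (zpax) counted from the lowest difference of 11771. Under median-of-ratios scaling, which moves the median of all genes by 0.54, zp4 (-0.78) and zpax (-0.52) were not called and 4 members were. Quantile normalization, which moves it by 0.33, left 5 called, without zpax (-0.52).

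Between neurula and tailbud the 6 genes were again all called lower, at NF24, where the background was 4.84% of all genes, and 0 were called higher, against 6.91%. The differences were -1.83 for zp2, -1.61 for zpax, -1.41 for zp4.2, -1.31 for zpd, -1.13 for zp3.2 and -1.11 for zp4. Their median was -1.36, and that of all genes was 0.12. All 6 stood among the 429 lowest differences of 11771 genes, zp2 at place 79 and zpax at place 150. For part of the family the call depended on the constant added. With 5 in place of 1 added to FPKM, 3 members were called (zp2, zpax and zpd), and zp4, zp4.2 and zp3.2 were at -0.997, -0.98 and -0.85. Under that setting 2.29% of all genes were called lower.

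Over the whole interval, NF24 against NF10.5, the differences ran from -4.64 (zp2) to -2.52 (zp4), with a median of -2.95 against -0.44 over all genes. All 6 were called lower, against a background of 36.9%, and 0 higher, against 25.4%. The other 4 had -3.53 (zp4.2), -3.02 (zpd), -2.87 (zp3.2) and -2.74 (zpax). This comparison shares its NF10.5 and NF24 columns with the steps above and adds no separate measurement.

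**Figure D3:**
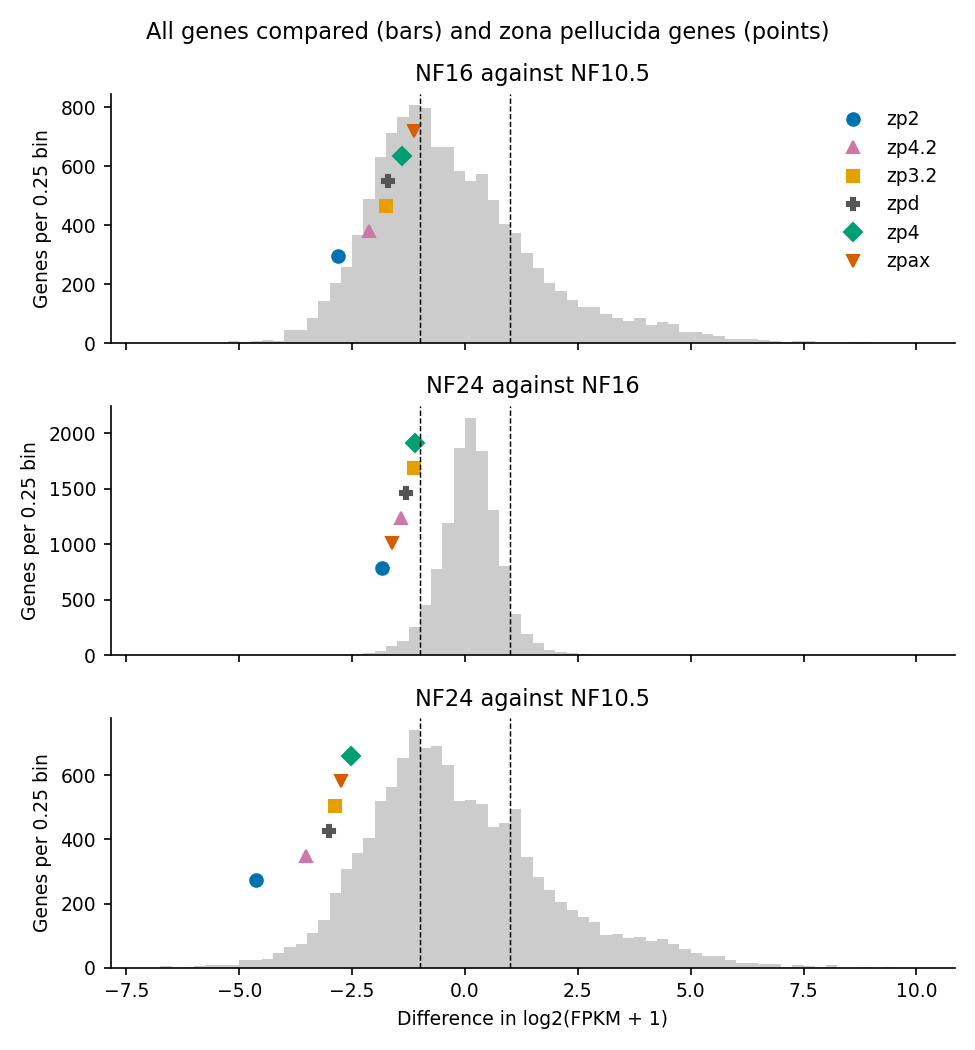
Histograms of the difference in log2(FPKM + 1) over the 11771 genes compared (grey bars, genes per bin of 0.25) for each pair of stages, with the 6 zona pellucida genes as points whose height has no meaning and dashed lines at the size of 1 in each direction. The points lie inside the broad lower side for NF16 against NF10.5, and in the thin lower tail for NF24 against NF16.

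Which step was larger depended on the scaling. As deposited, 5 genes differed more between NF10.5 and NF16 than between NF16 and NF24, and zpax differed more in the later step. Under median-of-ratios scaling the later step was larger for 5 of the 6, all but zp2, and under quantile normalization for all 6. With the median of all genes subtracted, zpax was at -0.57 for NF16 against NF10.5 and at -1.72 for NF24 against NF16, and zp2 at -2.25 and -1.94.

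Other genes of the oocyte were set beside the family. A list of 50 oocyte and maternal genes had 36 members in the table, all of which passed the filter. At NF16, 26 of the 36 were called lower than at NF10.5 and 0 higher, with a median of -2.41. Over all genes, 39.0% were called lower and 20.9% higher at this step. At NF24, 13 of 36 were called lower than at NF16 and 0 higher, with a median of -0.68. Over all genes, 4.84% were called lower and 6.91% higher at that step. The 13 became 22 with 0.1 added to FPKM and 3 with 5 added, where 8.33% and 2.29% of all genes were lower. Among the 5 most abundant, the oocyte linker histone gene h1foo was listed with 178, 4.35 and 1.07 FPKM in the order of stages, and the mitotic cyclin gene ccnb1 had 296, 3.03 and 1.01 FPKM. The cyclin gene ccna1 had 323, 125 and 12.5 FPKM. The translational repressor gene eif4enif1 had 209, 28.3 and 26.8 FPKM, and the RNA-binding protein gene igf2bp3 had 120, 227 and 227 FPKM, so it was not lower at the later stages.

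Shares of the earlier value, which need no added constant, were taken for genes with at least 5 FPKM at the earlier stage. For NF16 against NF10.5 the zona pellucida genes kept 13.2% to 44.5%, with a median of 29.2%, and 33 oocyte and maternal genes kept 1.02% to 188%, with a median of 10.3%. Of these 33, 18 lay below every zona pellucida gene, 7 within their range and 8 above. For NF24 against NF16 the zona pellucida genes kept 21.4% to 45.1%, with a median of 35.5%. Here only 13 oocyte and maternal genes still had 5 FPKM at NF16, so the set is chosen for persistence, and they kept 5.51% to 123%, with a median of 60.1%. Of the 13, 2 lay below every zona pellucida gene, 3 within their range and 8 above.

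**Figure D4:**
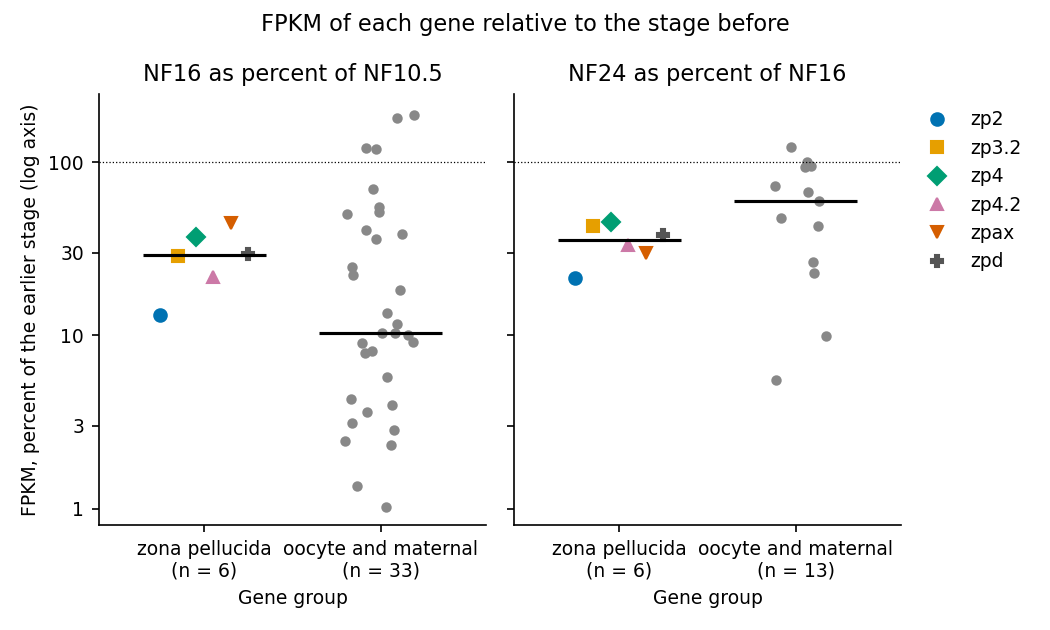
FPKM at the later stage as a percent of the earlier stage (log axis) for the 6 zona pellucida genes (coloured points) and for oocyte and maternal genes with at least 5 FPKM at the earlier stage (grey points, spread sideways for visibility), with medians as black lines and a dotted line at 100%. The zona pellucida median is 29.2% against 10.3% for NF16 over NF10.5, and 35.5% against 60.1% for NF24 over NF16.

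From the same oocyte and maternal list, 3 genes were picked for their known roles after their values had been seen. The transcription factor gene figla, which activates zona pellucida genes in the mouse oocyte, had 18.6, 1.70 and 0.70 FPKM in the order of stages. The oocyte growth factor genes gdf9 and bmp15 had 55.8, 1.59 and 0.60 FPKM (gdf9) and 11.6, 0.50 and 0.26 FPKM (bmp15). At NF16 they held 9.13% (figla), 2.86% (gdf9) and 4.30% (bmp15) of the gastrula value, each a lower share than any zona pellucida gene. They are thus part of the 18 of 33 genes already counted there, beside 7 within the zona pellucida range and 8 above it.

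Genes that act on or with the egg coat were few. Of 26 listed, 8 were in the table and 3 passed the filter. The tetraspanin gene cd9, whose protein is needed on the mouse egg for fusion with sperm and is also found in many epithelia, was called higher at NF16, with 340 FPKM against 119 FPKM at NF10.5, and had 407 FPKM at NF24. The related gene cd81 had 13.6, 18.5 and 17.02 FPKM and was not called. The gene ovch1, related to the oviduct protease that processes the envelope in Xenopus laevis, had 7.51, 4.39 and 2.50 FPKM, a difference of -1.28 for NF24 against NF10.5 that was not called under median-of-ratios scaling or with 5 added. That oviduct protease itself, ovch2, stayed between 0.057 and 0.463 FPKM. The astacin protease gene astl, which in the mouse egg cuts ZP2 after fertilization, had 0.723 FPKM at NF10.5 and 0.20 FPKM at both later stages.

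Proteins with a zona pellucida domain that serve elsewhere did not share the gastrula abundance. Of 13 such genes listed, 8 were in the table, and together they summed to 1.15 FPKM at NF10.5, 2.23 FPKM at NF16 and 1.94 FPKM at NF24. Only umodl1 reached 1 FPKM, at NF16, and it was not called at any step as deposited (0.92 for NF16 against NF10.5). That difference passed the size of 1 under median-of-ratios scaling (1.06), with TPM (1.39) and with 0.1 added (2.79), and for NF24 against NF10.5 it did so with 0.1 added (2.22) and with TPM (1.04). The TGF-beta co-receptor genes tgfbr3 and eng had at most 0.80 and 0.31 FPKM.

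Some markers of other cell types differed between stages beside the zona pellucida genes. Of 14 germ plasm and germ cell genes 12 were measured, with a summed level of 152 FPKM at NF10.5, 47.8 FPKM at NF16 and 28.5 FPKM at NF24, and none was at 0 at all stages. At NF16, 8 of the 12 were called lower than at NF10.5, and at NF24, 3 were called lower than at NF16. Over all genes, 39.0% were called lower and 20.9% higher at NF16, and 4.84% lower at NF24. With 5 added to FPKM the counts of 8 and 3 were 5 and 0, with 28.3% and 2.29% of all genes lower. With 0.1 added they were 8 and 7, with 42.4% and 8.33% of all genes lower. Several of the 12 are also on the oocyte and maternal list. The 10 measured endoderm genes summed to 112, 15.6 and 14.7 FPKM, with 5 of the 9 compared called lower at NF16. The 6 measured mesoderm and muscle genes summed to 4.12, 254 and 325 FPKM, with 5 called higher at NF16. The labelled tissue carried its markers, as the 15 measured ectoderm genes summed to 3019, 36240 and 35359 FPKM, with 11 called higher and 2 lower at NF16. Most of the sum was keratin, with 17079 FPKM for krt5.7 and 12721 FPKM for krt at NF16, and the 2 called lower were foxi2 and ventx2.1, named here after their values had been seen. The part of these marker changes in the zona pellucida values was not tested.

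Most markers of the somatic cells of the ovary and of the oviduct were low. Of 16 markers 13 were measured, 3 of which passed the filter, and their sum of 20.6, 17.04 and 21.7 FPKM was mostly foxo3, a broadly expressed factor, with 17.4, 15.3 and 18.9 FPKM. The steroidogenic gene star was listed at 0 at all stages, and the granulosa cell factor gene foxl2 had 0.05, 0.113 and 0.203 FPKM. The receptor gene fshr had 1.603, 0.053 and 0.010 FPKM in the order of stages. It was called lower at NF16 than at NF10.5 (-1.31), a call lost with 5 added to FPKM (-0.39). The aromatase gene cyp19a1, listed at 0 at NF10.5, had 0.023 FPKM at NF16 and 1.107 FPKM at NF24, where it was called higher than at NF16 (1.04), a call lost under quantile normalization (0.86) and with 5 added (0.28). The genes star and foxl2 were picked as defining markers after their values had been seen.

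To place the pattern of the 6 genes in the transcriptome, the distance between genes was taken over the 3 stage values of log2(FPKM + 1), among genes with a symbol. Nearest to zp2 lay rnf219 (distance 0.24, with 75.6, 10.3 and 2.82 FPKM), gbp1 (0.44), lhx5 (0.53), mcm3 (0.57) and lmf2 (0.62). Of 10342 genes, 2 lay within 0.5 of zp2. Among the nearest to zpax lay gpx3 (distance 0.13, with 50.4, 22.4 and 6.45 FPKM), aass (0.25), mipep (0.28) and rb1 (0.31), and 16 genes lay within 0.5. The 3 values per gene leave little room for patterns to differ, so such neighbours are a description.

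Each gene was then centred on its own mean, to compare the course more than the level. The added 1 still flattens the course of genes with low values. By this measure zp2 lay nearest to MGC147172, dct, ventx1.2, sox3 and rnf219, at distances of 0.14 to 0.24. The nearest to zpax were fkbp6, gpx3, pkdcc.1, uroc1 and aass, at 0.01 to 0.14. The zygote arrest gene zar1, a maternal gene, was the nearest to zp3.2 (0.02), with 13.7, 3.40 and 0.977 FPKM. Without the added 1 the courses differed more, as zar1 held 7.16% of its gastrula value at NF24 and zp3.2 held 12.2%. After zar1, zp3.2 lay nearest to h2afj, dmd.1, dpy19l1 and lactb2. For zp4 the nearest were glrx3, hmgb3, me2, ddx43 and sepw1, for zp4.2 they were nrf1, gbp5, mettl2b, akap12 and s1pr5, and for zpd they were ppp1r3c.2, pcca, h1fx, dis3l2 and supt3h. Within the family, zp3.2 and zpd had the most similar course, at a distance of 0.14. Among 8756 genes, zpd still held only place 22 from zp3.2, and zp3.2 place 10 from zpd. By distance, zp2 stood farthest from the family member nearest to it in course, zp4.2, at 0.79 and place 104. By place, zp4 did, with zp3.2 at place 115 and a distance of 0.28.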

How the data were processed

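RNA from animal caps was made into rRNA-depleted directional paired-end libraries, per the labels' protocols. Per the submitters' processing notes the tools were STAR 2.4.2a and RSEM 1.3.0. Their settings are not stated, and the genome build is not given in the sources used here. The authors deposited FPKM per RefSeq transcript, with 1 column per stage. Every value was a multiple of 0.01 divided by 3, so each is taken as the mean of the 3 labelled replicates. The depth is unknown, and no test, interval or detection floor could be computed.

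Python 3.11.15, pandas 2.3.3 and numpy 2.4.6 were used. FPKM was summed over the rows of a gene, including 19 rows that repeat a transcript. Genes with at least 1 FPKM at 1 or more stages were compared as differences in log2(FPKM + 1), a scale that understates the change of low genes. The computation of the differences and calls was checked on simulated data. The members, the 8 gene lists and the rule of size were chosen with earlier results of these data known. Named genes are all members, up to 5 most abundant members per list, called members of the lists of egg coat and zona pellucida domain genes, and the 5 genes nearest to each member, of which 1 is not reported here. The 9 alternatives were other constants and filters, TPM, median-of-ratios and quantile scaling, the highest transcript, and repeated rows dropped.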

Additional observations from a re-analysis of the deposited data

How the results depend on the processing

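Each of the 18 differences of the 6 genes (6 genes at 3 pairs of stages) kept its sign under the 9 alternatives, and 156 of 162 values stayed on the same side of the size of 1. The exceptions were zp4 and zpax for NF16 against NF10.5 under median-of-ratios scaling, zpax there under quantile normalization, and zp3.2, zp4 and zp4.2 for NF24 against NF16 with 5 added to FPKM. The last left 3 of 6 genes called lower. Many of the 162 values could not move. The changed filters and the dropped repeated rows left every member value as it was, and the highest transcript could alter only zp4.2. Another added constant cannot turn a sign, so for the signs only the rescaled settings could have differed in the remaining genes. The members stood below the median of all genes in every setting run. Counts over all genes depended on the setting. For NF24 against NF16, 570 genes were lower and 813 higher as deposited, 980 and 1343 with 0.1 added, 270 and 271 with 5 added, and 626 and 1227 with TPM. Scaling by median of ratios led to 785 lower and 633 higher there, while quantile normalization gave 790 lower and 641 higher. For NF16 against NF10.5, 4586 were lower and 2466 higher as deposited, against 2854 and 3279 under median-of-ratios scaling. For NF24 against NF10.5, 4342 were lower and 2984 higher as deposited, 3224 and 1974 with 5 added, and 3103 and 3624 under median-of-ratios scaling. Median-of-ratios scaling moved the median of all genes by -0.12 for NF24 against NF16 and by 0.44 for NF24 against NF10.5. This scaling is built to bring that median near 0, and it stood at -0.003 and -0.001 after it. Why the medians as deposited lay away from 0 was not tested. No paired analysis was possible because each stage has 1 column of means, and for the same reason leaving out a replicate was not run. FPKM without counts sets no limit of detection, so values below 1 FPKM are of unknown precision.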

Other observations

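In the order of genes in the RefSeq annotation of assembly UCB_Xtro_10.0, which was used only for names and neighbours, the 6 zona pellucida genes lie on 6 different chromosomes. Of their 12 directly adjacent protein-coding genes 10 were in the table, and 5 reached 1 FPKM at some stage. Of these 5, 2 were called lower and 3 higher at NF16 than at NF10.5, against 39.0% and 20.9% of all genes. With so few genes the counts are a description. The mesoderm factor gene msgn1, next to zpax, had 0.13 FPKM at NF10.5, 29.4 FPKM at NF16 and 4.51 FPKM at NF24. The cilium gene drc7, next to zpd, had 2.78, 29.2 and 35.9 FPKM in the order of stages, and sqstm1, an autophagy receptor gene next to zp4, had 9.73, 35.96 and 54.0 FPKM. The gene mtfp1, next to zp3.2, had 16.02, 6.92 and 16.97 FPKM. The unnamed LOC100494768, next to zp4.2, had 4.88, 0.403 and 0.063 FPKM. The 2 measured neighbours that were called lower at NF16 were mtfp1 (-1.10, close to the size of 1) and LOC100494768 (-2.07). Next to zp2, mchr1.2 stayed at or below 0.02 FPKM, and the gene on the other side was not in the deposited table.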
